A study of Homo sapiens with 9 samples.

Results

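The 10 genes described here encode the E2F transcription factors E2F1 to E2F8, their dimerization partner DP1 (TFDP1) and the pocket protein p107 (RBL1). They were taken by symbol from GENCODE release 29 out of 58721 genes in the count tables, and all 10 passed the filter on low counts that left 16441 genes for testing. Expression was measured by RNA sequencing in H1299 cells, a cultured line derived from a human non-small cell lung cancer. The melatonin group received 0.1 mM melatonin, the siCLOCK group received small interfering RNA named for the circadian factor CLOCK, and the control group was kept in serum free medium, with 3 libraries in each group. The labels name no non-targeting siRNA, no treatment time and no vehicle, and they do not say whether the treated cells were also without serum. The design text calls the samples of a group independent, but no source used here says whether they were separate cultures, so the p-values reflect the spread among these 9 libraries, which may be technical.

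E2F1, E2F2 and E2F3 are activators that bind DNA together with a DP protein and drive genes needed to enter S phase, and the retinoblastoma protein RB1 holds them inactive until cyclin-dependent kinases phosphorylate it. E2F4 and E2F5 work mainly as repressors with the pocket proteins RBL1 and RBL2 in resting and early G1 cells. E2F6 lacks the pocket-binding region and represses with Polycomb proteins, and the atypical members E2F7 and E2F8 bind DNA without a DP partner and repress E2F targets during S phase. Several genes of the family, E2F1 among them, are themselves E2F targets.

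Promoter windows, from 250 bases before to 50 bases after the start site, were available for 8 members in the RefSeq table (GRCh38.p14), with 9 windows in all because E2F3 had 2. The letters searched on both strands were TTTCCCGC, TTTGGCGC, TTTCGCGC and TTTGCCGC, forms of the E2F recognition sequence that overlap no other motif searched. They were present in 5 of the 9 windows, those of E2F1, E2F2, RBL1, TFDP1 and the upstream window of E2F3, against 3.31% of 35116 windows of all genes. E2F1 and RBL1 held 2 matches each, which 0.125% of all windows did. The windows of E2F1, E2F2, RBL1 and E2F7 are shown because these genes had lower counts in melatonin, and that of E2F3 because it held the letters although E2F3 did not pass. Each is written 5′ to 3′ on the gene's strand, and capitals mark the letters searched.
E2F1, chr20:33686336-33686635, minus strand: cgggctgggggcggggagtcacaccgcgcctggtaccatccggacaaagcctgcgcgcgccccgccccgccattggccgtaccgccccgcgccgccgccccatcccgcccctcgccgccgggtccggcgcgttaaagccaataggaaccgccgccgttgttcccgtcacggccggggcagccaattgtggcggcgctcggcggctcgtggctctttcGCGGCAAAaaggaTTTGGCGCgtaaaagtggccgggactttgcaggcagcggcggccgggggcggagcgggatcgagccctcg
E2F2, chr1:23531184-23531483, minus strand: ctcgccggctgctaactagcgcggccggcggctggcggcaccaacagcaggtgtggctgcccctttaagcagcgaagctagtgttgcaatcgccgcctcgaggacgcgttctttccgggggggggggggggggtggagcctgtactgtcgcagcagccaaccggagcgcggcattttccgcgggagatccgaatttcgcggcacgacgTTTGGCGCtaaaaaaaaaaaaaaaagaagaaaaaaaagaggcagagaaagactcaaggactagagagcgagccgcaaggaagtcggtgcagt
RBL1, chr20:37095948-37096247, minus strand: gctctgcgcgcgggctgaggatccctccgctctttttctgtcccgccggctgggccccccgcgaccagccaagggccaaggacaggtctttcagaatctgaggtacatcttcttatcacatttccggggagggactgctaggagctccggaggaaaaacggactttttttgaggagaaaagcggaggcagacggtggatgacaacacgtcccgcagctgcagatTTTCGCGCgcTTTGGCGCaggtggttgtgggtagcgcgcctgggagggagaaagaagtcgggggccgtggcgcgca
E2F7, chr12:77065520-77065819, minus strand: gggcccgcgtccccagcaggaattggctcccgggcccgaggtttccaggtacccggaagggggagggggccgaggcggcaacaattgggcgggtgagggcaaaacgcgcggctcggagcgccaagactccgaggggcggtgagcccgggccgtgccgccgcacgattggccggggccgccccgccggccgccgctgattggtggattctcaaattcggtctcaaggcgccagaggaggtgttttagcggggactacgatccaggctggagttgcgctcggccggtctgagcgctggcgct
E2F3, chr6:20401629-20401928, plus strand: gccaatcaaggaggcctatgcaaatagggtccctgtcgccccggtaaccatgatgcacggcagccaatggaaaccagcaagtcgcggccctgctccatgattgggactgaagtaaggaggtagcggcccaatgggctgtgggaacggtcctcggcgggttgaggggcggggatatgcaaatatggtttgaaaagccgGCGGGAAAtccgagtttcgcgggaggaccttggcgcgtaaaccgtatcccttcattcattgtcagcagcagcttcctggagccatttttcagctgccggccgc

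In E2F1 the matches began 33 and 20 bases before the start site, in RBL1 26 and 16 bases before it and in E2F2 42 bases before it. The E2F7 window held none of these letters but 4 copies of CCAAT, the letters recognized by the factor NF-Y. CCAAT was found 3 times in the E2F1 window, 4 times in the upstream E2F3 window and in 34.6% of all windows. The cell cycle homology region letters TTTGAA occurred in the upstream E2F3 window and in 15.2% of all windows. The windows of E2F4 and E2F6 held none of the 3 kinds of letters. A match describes the letters in the window and is not a measured binding site, and the share over all windows was not matched for base composition, which lay between 58.3% and 79.7% G and C in the members' windows.

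Counts assigned to genes ranged from 15384539 to 19192962 per library, and the lowest count of any member was 267 for E2F8 in melatonin replicate 1. By their share of unmapped reads the libraries fell into a pair of sets, called technical sets here. The labels name no batch, and the origin of the sets was not tested. The 3 melatonin libraries and siCLOCK replicate 3 had 2.24% to 2.34% unmapped reads, and siCLOCK replicates 1 and 2 and the 3 controls had 1.22% to 1.36%. No other group than siCLOCK had libraries in both sets, so a model term for the set compares siCLOCK replicate 3 with siCLOCK replicates 1 and 2. CLOCK, the target of the siRNA, stood at 51.5%, 78.7% and 93.8% of the control mean in siCLOCK replicates 1, 2 and 3. The library labelled siCLOCK replicate 3 thus shows little of the reduction its label implies. In the set term, a difference between sets cannot be told apart from CLOCK level or from variation of that single library. The keratin and vimentin genes KRT8, KRT18 and VIM, taken as markers of the line, summed to 1818 to 1874 CPM (counts relative to the TMM-scaled library total) in melatonin, 2230 to 2450 CPM in siCLOCK and 2157 to 2499 CPM in control. All 3 were called lower in melatonin than in control, and the part of these shifts in the results below was not tested. Of 5 markers of lung epithelial differentiation none exceeded 1.39 CPM in any library, SCGB1A1 and the blood marker HBB were at 0 in all 9, and the highest of 8 markers of blood, fibroblast and endothelial cells was 4.08 CPM.

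In melatonin against control, E2F2, E2F7, E2F8, E2F1 and RBL1 fell, E2F2 by the most, and the other 5 members did not pass. Called lower were 5 of the 10 members and called higher were 0, whereas 12.1% of all 16441 genes tested were lower and 11% were higher (1987 and 1803 genes). With library totals in place of TMM scaling, 1475 genes were lower and 2586 higher, and the median of all genes was 0.07. The test was edgeR's quasi-likelihood test at a Benjamini-Hochberg adjusted p under 0.05 over all genes. The median log2 fold change was -0.32 over the 10 members and 0.01 over all genes tested. Levels below are CPM, as mean ± SD over 3 libraries. In RNA from whole cultures, fewer cells in a cycle phase and less RNA per cell cannot be told apart.

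**Figure D1:**
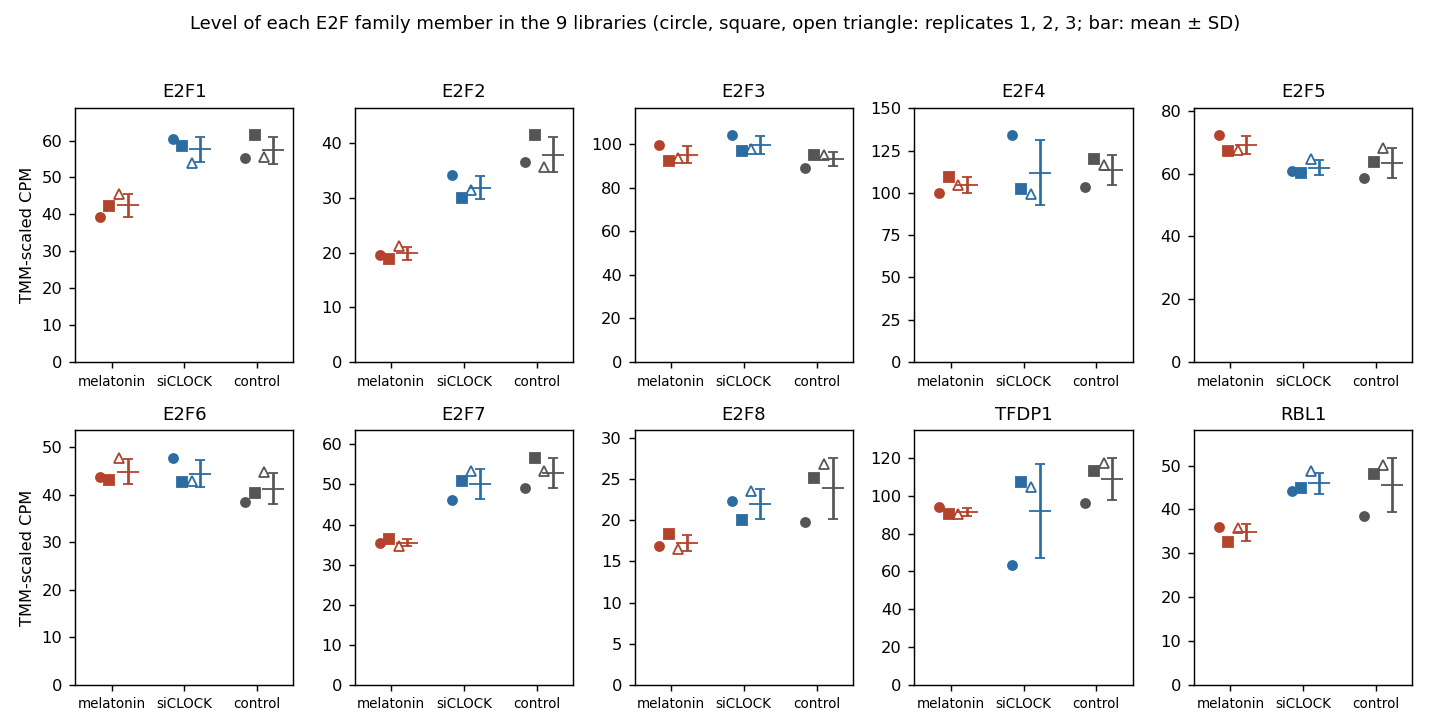
TMM-scaled CPM (y axis, from 0) of each of the 10 members in the melatonin, siCLOCK and control libraries, with a symbol per replicate and a bar for mean ± SD (n = 3). The 3 melatonin libraries lie below all 6 others for E2F1, E2F2, E2F7, E2F8 and RBL1, and TFDP1 is lowest in siCLOCK replicate 1 at 63.3 CPM.

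Among the activators, E2F2 (ENSG00000007968.6, chr1:23506430-23531220 in GRCh38) had 19.5, 18.8 and 21.3 CPM in the melatonin libraries, against 36.6, 41.5 and 35.6 CPM in the controls. The groups did not overlap, and melatonin averaged 52.3% of the control mean. E2F2 averaged 19.8 ± 1.27 CPM in melatonin and 37.9 ± 3.17 CPM in control (SD, n = 3 each), a log2 fold change of -0.93 (SE 0.09, edgeR adjusted p = 6.95e-07). E2F1 (ENSG00000101412.12, chr20:33675683-33686404), the activator best known for driving entry into S phase, had 39.4, 42.4 and 45.5 CPM in melatonin, against 55.2, 61.6 and 55.4 CPM in control. Every melatonin library lay below every control, with a log2 fold change of -0.43 (SE 0.08, edgeR adjusted p = 5.10e-04). With the technical set as a term in the model, E2F1 stood at -0.29 and no longer passed (edgeR adjusted p = 0.211), while E2F2 stood at -0.91 (edgeR adjusted p = 5.51e-04). E2F3 (ENSG00000112242.14, chr6:20401906-20493715) had 99.7, 92.4 and 93.6 CPM in melatonin, against 89.3, 94.9 and 94.9 CPM in control. These groups overlapped, and its log2 fold change was 0.03 with a 95% interval of -0.10 to 0.17 (edgeR adjusted p = 0.756).

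Of the atypical repressors, E2F7 (ENSG00000165891.15, chr12:77021247-77065580) had 35.4, 36.3 and 34.5 CPM in melatonin, against 49.0, 56.5 and 53.3 CPM in control. The melatonin libraries lay within 2 CPM of each other and below all controls. The log2 fold change of E2F7 was -0.58 (SE 0.08, edgeR adjusted p = 3.49e-05) and -0.71 with the set term (edgeR adjusted p = 0.00140). E2F8 (ENSG00000129173.12, chr11:19224063-19241620) was among the least abundant members and had 16.8, 18.3 and 16.6 CPM in melatonin, against 19.7, 25.2 and 26.8 CPM in control. The groups did not overlap, although control replicate 1 lay close to the melatonin libraries. Its log2 fold change was -0.47 (SE 0.11, edgeR adjusted p = 0.00385), and -0.62 with the set term (edgeR adjusted p = 0.0451).

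E2F4, E2F5 and E2F6, the repressors that are not atypical, did not pass in melatonin against control. E2F4 (ENSG00000205250.8), the most abundant member, had 100.1, 109 and 104 CPM in melatonin, against 103, 120.1 and 117 CPM in control. The ranges overlapped (log2 fold change -0.12, 95% interval -0.31 to 0.08, edgeR adjusted p = 0.407). E2F6 (ENSG00000169016.16) had 43.7, 43.0 and 47.8 CPM in melatonin, against 38.5, 40.4 and 44.9 CPM in control, also with overlap (0.12, 95% interval -0.05 to 0.29, edgeR adjusted p = 0.295). E2F5 (ENSG00000133740.10) had 72.4, 67.3 and 67.5 CPM in melatonin, against 58.5, 63.6 and 68.0 CPM in control. Its fold change was 0.12 on the log2 scale (95% interval -0.02 to 0.27, edgeR adjusted p = 0.225). Of the E2F5 exon bases 28.7% are shared with genes on the other strand, mostly C8orf59, and in counts made without strand a read over shared bases is assigned to no gene, so its level here is a lower limit.

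The pocket protein gene RBL1 (ENSG00000080839.11, chr20:36996349-37095995) fell and the DP partner gene TFDP1 (ENSG00000198176.12, chr13:113584721-113641470) did not pass. RBL1, which holds E2F4 and E2F5 in repressor complexes, had 36.0, 32.5 and 35.8 CPM in melatonin, against 38.6, 48.2 and 50.2 CPM in control. The groups did not overlap, with control replicate 1 nearest to melatonin (log2 fold change -0.39, SE 0.09, edgeR adjusted p = 0.00420; with the set term -0.52, edgeR adjusted p = 0.0475). TFDP1 had 93.8, 90.3 and 90.2 CPM in melatonin, against 96.2, 113 and 117 CPM in control. Its groups did not overlap either, and its log2 fold change was -0.25 (95% interval -0.53 to 0.02, edgeR adjusted p = 0.179). The spread behind that test includes siCLOCK replicate 1, in which TFDP1 stood at 63.3 CPM against 107 and 105 CPM in siCLOCK replicates 2 and 3. Without siCLOCK replicate 1, TFDP1 passed at -0.25 (edgeR adjusted p = 0.00686), and in a fit to the 6 melatonin and control libraries alone it passed at -0.26 (edgeR adjusted p = 0.00178). With the set term it stood at -0.55 and did not pass (edgeR adjusted p = 0.134). Of 23 alternatives, TFDP1 passed in 3.

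**Figure D2:**
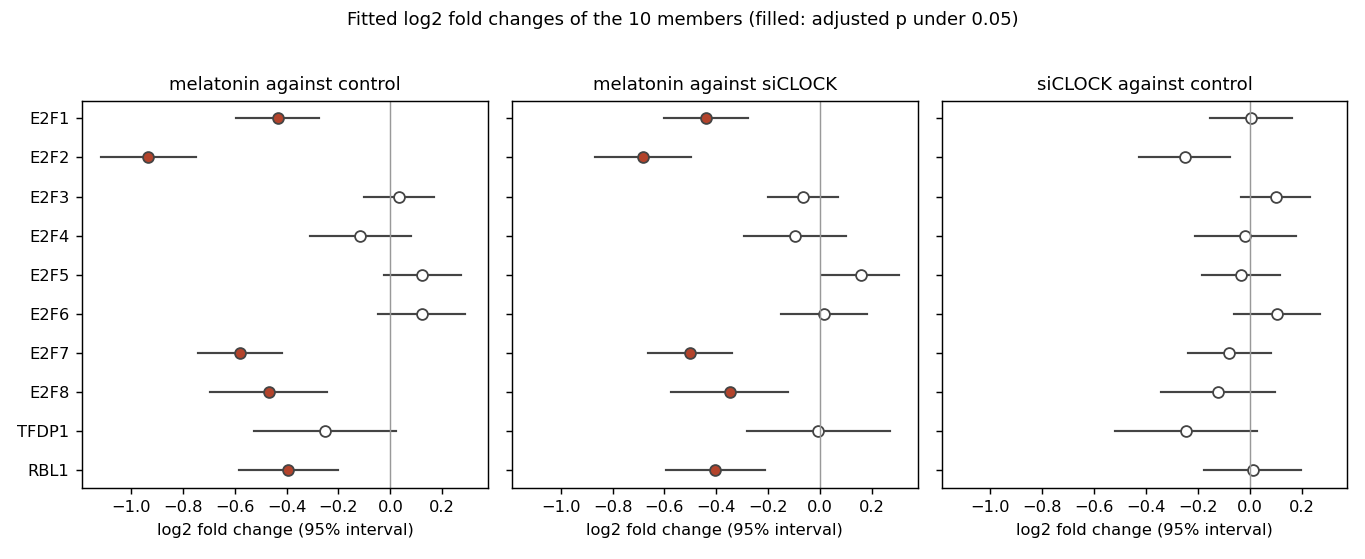
Fitted log2 fold changes (x axis) of the 10 members with 95% intervals in the 3 comparisons, filled where the edgeR adjusted p was under 0.05. Filled points are the same 5 genes in both melatonin panels, E2F2 at -0.93 and -0.68 being farthest left, and no point is filled for siCLOCK against control.

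The activators and repressors were then set side by side. In melatonin against control, 2 of the 3 activators and 2 of the 5 repressors were lower, and the median log2 fold change was -0.43 for E2F1 to E2F3 and -0.12 for E2F4 to E2F8, a difference of -0.32. These 2 medians are the values of E2F1 and E2F4, and E2F1 did not pass with the set term. Both classes were mixed, since E2F3 was at 0.03 among activators while E2F7 and E2F8 had a median of -0.52 among repressors. E2F4, E2F5 and E2F6 had a median of 0.12. This finer division of the repressors follows their known biochemistry but was made after the values were seen, and no test was run on any of these medians because the members were chosen with earlier results known. By library, and relative to the control mean, the activator median was -0.54, -0.44 and -0.33 in the melatonin libraries, between -0.09 and 0.08 in siCLOCK and between -0.05 and 0.10 in control. The E2F7 and E2F8 median was -0.54, -0.46 and -0.57 in melatonin, between -0.15 and 0.00 in siCLOCK and between -0.19 and 0.09 in control. The activator median was the value of E2F1 in each melatonin library, while E2F3 stood at 0.10, -0.01 and 0.01 there. In siCLOCK against control the difference between the class medians was 0.04.

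**Figure D3:**
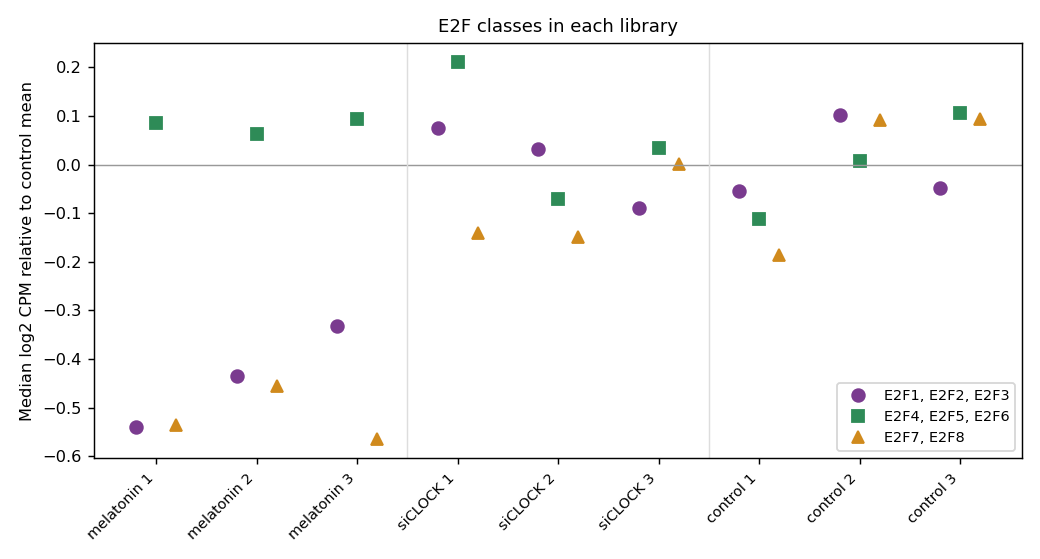
Median log2 CPM relative to the control mean (y axis) of E2F1 to E2F3, E2F4 to E2F6, and E2F7 with E2F8 in each of the 9 libraries. In the melatonin libraries the activator and atypical repressor medians lie at -0.33 or below, and the E2F4 to E2F6 median between 0.06 and 0.09. The activator median there is the value of E2F1.

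Melatonin was also compared with siCLOCK, a comparison that shares its melatonin libraries with the one above. Called lower were the same 5 members and called higher were 0, while 10.1% of all genes tested were lower and 7.43% were higher. E2F2 had 34.1, 30.0 and 31.5 CPM in siCLOCK, all above its melatonin libraries, with a log2 fold change of melatonin over siCLOCK of -0.68 (SE 0.09, edgeR adjusted p = 3.49e-05). E2F7 stood at -0.50, E2F1 at -0.44 and RBL1 at -0.40 on the same scale (edgeR adjusted p = 2.32e-04, 6.95e-04 and 0.00501), each with the groups apart. When the set term was included, melatonin was in effect set against siCLOCK replicate 3 alone, a single library assumed to vary like the other groups. On that basis E2F2 stood at -0.67, E2F7 at -0.59, RBL1 at -0.49 and E2F1 at -0.34 (highest edgeR adjusted p = 0.0415). E2F8 was called at -0.35 (SE 0.11, edgeR adjusted p = 0.0320), but with the set term it was at -0.45 and did not pass (edgeR adjusted p = 0.0595). The E2F8 call was also lost without siCLOCK replicate 1 (-0.34) or replicate 3 (-0.29), and without melatonin replicate 1 (-0.33), replicate 2 (-0.40) or replicate 3 (-0.32), the adjusted p lying between 0.0532 and 0.120. It was lost as well with library totals alone (-0.28, edgeR adjusted p = 0.0830) and on 1 of the strand-specific counts (-0.36, edgeR adjusted p = 0.0561). E2F8 passed in 13 of 22 alternatives, which include a stricter threshold of 0.01. E2F5 had 60.8, 60.2 and 64.7 CPM in siCLOCK, all below its melatonin libraries, but did not pass (0.16, edgeR adjusted p = 0.136).

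In siCLOCK against control, none of the 10 members passed with edgeR, nor with DESeq2 or limma-voom, and 1 had an unadjusted p under 0.05, as did 1355 of the 16441 genes tested. The share of all genes called was 0.0669% lower and 0.0547% higher. That member was E2F2, whose siCLOCK libraries at 34.1, 30.0 and 31.5 CPM lay below the controls at 36.6, 41.5 and 35.6 CPM, with a log2 fold change of -0.25 (95% interval -0.43 to -0.07, edgeR adjusted p = 0.363). E2F3 had 104, 96.9 and 97.8 CPM in siCLOCK, above all controls, at 0.10 (95% interval -0.03 to 0.23, edgeR adjusted p = 0.751). The other members overlapped between the groups. The share of all genes whose groups did not overlap was not computed in any comparison, so non-overlap of members has no background here. E2F1 was at 0.01 (95% interval -0.15 to 0.16), E2F7 at -0.08 (-0.24 to 0.08) and E2F8 at -0.12 (-0.34 to 0.10). CLOCK itself did not pass in siCLOCK against control (log2 fold change -0.42, edgeR adjusted p = 0.340). The lack of calls among the members therefore does not show that they were unchanged. TFDP1, at -0.25, was low in siCLOCK replicate 1 only, the library with the lowest CLOCK level, and E2F4 was highest there at 134 CPM against 102 and 99.5 CPM in the other siCLOCK libraries. An exact permutation test of each member on CPM cannot go below p = 0.1 with 3 against 3 libraries. That smallest value was reached by E2F2 and E2F3 in siCLOCK against control, by E2F1, E2F2, E2F7, E2F8, TFDP1 and RBL1 in melatonin against control, and by E2F1, E2F2, E2F5, E2F7, E2F8 and RBL1 in melatonin against siCLOCK.

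Per kilobase of exon, E2F4 had the highest level of the 10 genes in every group, at 49.9 ± 2.24 CPM per kb in melatonin, 53.5 ± 9.25 in siCLOCK and 54.1 ± 4.20 in control (SD, n = 3 each). In control it was followed by TFDP1 (41.1), E2F5 (31.5), E2F1 (22.9), E2F3 (18.0), E2F6 (11.97), E2F7 (9.23), RBL1 (7.85), E2F2 (7.31) and E2F8 (6.09 CPM per kb). In control, E2F7 and RBL1, and RBL1 and E2F2, overlapped as neighbours in this order, and the other neighbours did not. The E2F5 level per kb is a lower limit. Reads over its shared exon bases (28.7%) were assigned to no gene, but its full exon length was used. Its rank in each group could therefore be higher, and the shares below depend on it too. In siCLOCK the overlapping neighbours were TFDP1 and E2F5, E2F7 and RBL1, and E2F2 and E2F8. In melatonin E2F1, at 16.9 CPM per kb, ranked below E2F3, at 18.4, with overlapping libraries. E2F2 ranked last at 3.82 CPM per kb, below E2F8 at 4.39. Of the summed level per kb of E2F1 to E2F8, E2F1 and E2F2 together made up 13.4%, 13.9% and 15.1% in the melatonin libraries, 17.8%, 19.1% and 17.9% in siCLOCK and 19.5%, 19.4% and 17.5% in control. E2F7 and E2F8 made up 6.92% to 7.45% in melatonin, 7.94% to 9.93% in siCLOCK and 9.07% to 9.70% in control. E2F4 to E2F6 together made up 65.8% to 66.5% in melatonin, 59.6% to 62.6% in siCLOCK and 59.9% to 61.8% in control. In none of these 3 shares did the melatonin libraries overlap the others. With E2F3 the shares add up to the whole, so they are not separate results, and a higher share is not a higher level. The summed level averaged 147 ± 1.21 CPM per kb in melatonin, 160 ± 11.2 in siCLOCK and 161 ± 10.1 in control (SD, n = 3 each).

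Genes that act with the family were counted from lists drawn from general knowledge with earlier results of these data known. The counts are therefore a description and not a separate test. Of 24 tested E2F target genes of the G1/S transition, 22 fell in melatonin against control and 0 rose. Over all genes tested, 12.1% were lower and 11% higher. The median log2 fold change of the 24 was -0.58. UHRF1, which maintains DNA methylation, averaged 55.0 ± 3.58 CPM in melatonin and 101 ± 3.13 CPM in control (SD, n = 3 each; log2 fold change -0.88). POLA1, the catalytic subunit of primase-polymerase alpha, fell by 0.66 and the licensing factor gene CDT1 by 0.77 on the log2 scale. CCNE1 and CCNE2, the cyclin E genes, named after their values were seen, did not pass (0.04 and -0.14). In siCLOCK against control 0 of the 24 passed (median -0.10), and 1 did without siCLOCK replicate 1. Without that library 38 of all 16743 genes tested were lower and 69 higher in this comparison. UHRF1 averaged 79.9 ± 5.75 CPM in siCLOCK, a log2 fold change of -0.34 over control (edgeR adjusted p = 0.0705). In melatonin against siCLOCK 21 fell (median -0.47), where 10.1% of all genes tested were lower. With the set term 16 fell in melatonin against control and 18 in melatonin against siCLOCK. Of all 16441 genes tested, 487 and 633 were lower in these comparisons with that term.

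**Figure D4:**
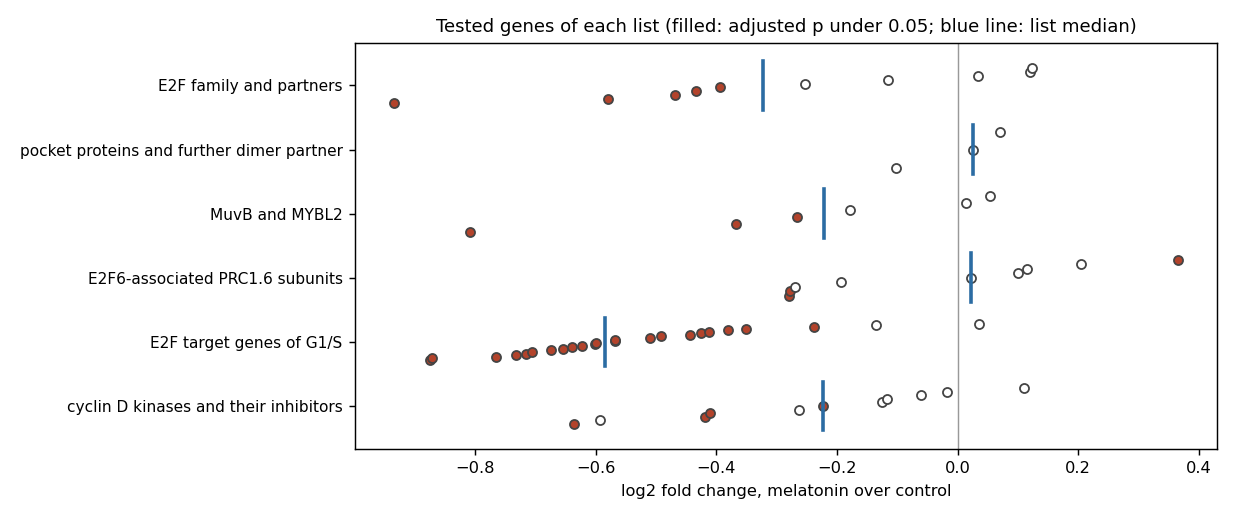
Log2 fold change of melatonin over control (x axis) for each tested gene of the family and of 5 related lists, filled where the edgeR adjusted p was under 0.05, with a line at the list median. The E2F targets centre on -0.58 and the pocket proteins with TFDP2 on 0.03.

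The other pocket proteins and the second DP gene did not pass. RB1 averaged 110.0 ± 0.453 CPM in melatonin and 108 ± 9.36 CPM in control (SD, n = 3 each). RBL2 averaged 82.4 ± 2.57 CPM in melatonin and 78.5 ± 4.31 CPM in control, and TFDP2 51.4 ± 1.74 CPM in melatonin and 55.2 ± 1.72 CPM in control. Their log2 fold changes were 0.03 (95% interval -0.14 to 0.19), 0.07 (-0.08 to 0.22) and -0.10 (-0.24 to 0.03). In siCLOCK against control, and in melatonin against siCLOCK, 0 of these 3 passed. Of 6 genes for the MuvB core and its partner B-MYB, which take part in repressing and activating cell cycle genes, 3 fell in melatonin against control and 0 rose. MYBL2, which encodes B-MYB and is a known E2F target, averaged 127 ± 2.41 CPM in melatonin and 223 ± 17.6 CPM in control (SD, n = 3 each; log2 fold change -0.81). LIN9 fell by 0.37 and RBBP4 by 0.27 on the log2 scale, while LIN54 (-0.18), LIN52 (0.05) and LIN37 (0.01) did not pass. LIN37 averaged only 0.86 CPM in melatonin and 0.84 CPM in control, with a 95% interval of -0.60 to 0.63. Over all genes tested, 12.1% were lower in melatonin than in control. With the set term 1 of these 6 was called lower in that comparison, as were 487 of all 16441 genes. The same 3 genes were lower in melatonin than in siCLOCK, where 10.1% of all genes were lower. In siCLOCK against control 0 of the 6 passed.

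Of 9 subunits of the Polycomb complex PRC1.6, with which E2F6 acts, 2 fell and 1 rose in melatonin against control, counts near the 12.1% lower and 11% higher over all genes tested. The rise was in RING1, a ubiquitin ligase, with 47.4 ± 2.32 CPM in melatonin and 36.8 ± 2.98 CPM in control (SD, n = 3 each; log2 fold change 0.37), and the falls were in CBX3 (-0.28) and WDR5 (-0.28). PCGF6, at -0.27, did not pass. With the set term 0 of the 9 were lower and 1 was higher, against 487 lower and 283 higher of all 16441 genes tested. The same 3 subunits were called in melatonin against siCLOCK, where 10.1% of all genes were lower and 7.43% higher. Without melatonin replicate 2, as with the set term, 1 was called there. Without that library 1031 of all 16685 genes tested were lower and 619 higher in melatonin against siCLOCK. In siCLOCK against control 0 of the 9 subunits were called. Of 11 cyclin D, kinase and kinase inhibitor genes, which act upstream of RB1, 4 fell in melatonin against control and 0 rose. These were the kinase inhibitor genes CDKN2D (-0.64), CDKN2C (-0.42) and CDKN2A (-0.22) and the kinase gene CDK6 (-0.41). Over all genes tested, 12.1% were lower in melatonin than in control. With the set term 2 of the 11 were lower, as were 487 of all 16441 genes. In melatonin against siCLOCK 6 fell, and 1 with the set term, against 1655 and 633 of all genes tested. In siCLOCK against control 0 passed. In that last comparison 2 were called higher without siCLOCK replicate 3, as were 60 of all 16706 genes then tested.

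The genes closest to a member in profile were found by the root mean square difference of log2 CPM over the 9 libraries, each gene centred on its own mean, among protein-coding genes with a mean of at least 5 CPM. For E2F1 these were POLE, ADGRE5 and ACTB at 0.03, 0.04 and 0.05, against a median of 0.24 over all genes compared. For E2F2 they were FAM72B, KIF20A and CDCA3 at 0.06, 0.07 and 0.07, against 0.41. For E2F7 they were FANCI, NCAPG2 and ATAD2 at 0.05, 0.05 and 0.06, against 0.28, and for E2F8 STIL, POLQ and RHEB at 0.08, 0.08 and 0.08, against 0.26. POLE averaged 107 CPM in melatonin, 139.9 CPM in siCLOCK and 141 CPM in control. KIF20A averaged 118 CPM in melatonin, 187 CPM in siCLOCK and 213 CPM in control.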

How the data were processed

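RNA sequencing libraries were read in pairs of 150 bases on a BGIseq500 instrument, per the labels' protocols. The deposited values are raw read counts for each gene. The submitters' processing notes name STAR 2.7.9a and the build GRCh38 (hg38). The annotation is not given in the sources used here, and all 58721 identifiers matched GENCODE release 29, inferred from the identifiers. The strand totals had a ratio of 1.01 to 1.05, so counts regardless of strand were used; 4 summary lines were left out, of which reads over more than 1 gene were 9.8% to 10.6% of reads.

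Genes were filtered with filterByExpr, scaled with TMM and fitted in 1 quasi-likelihood model of all 9 libraries with edgeR 4.0.16 in R 4.3.3 (limma 3.58.1 and DESeq2 1.42.0 as alternatives). Tests were two-sided, and p-values were adjusted by the Benjamini-Hochberg method over 16441 genes. The biological coefficient of variation was 0.0682. An SE is the log2 fold change divided by the square root of F, and exon lengths are merged GENCODE exons. The procedure was tested on counts simulated with the same spread for all genes and no set effect. In melatonin against control, 78% of 100 genes changed 1.5-fold and 92% of 100 changed 2-fold were recovered. Of 184 calls 14 were false. No change smaller than 1.5-fold was simulated.

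The members and lists were chosen with earlier results of these data known. Named were all 10 members, every gene of lists with at most 6 tested members, in longer lists up to 4 with the smallest p in melatonin against control and any called against the list's majority, the 3 genes closest in profile to each of 4 members, and CLOCK; a gene this rule names is not reported here. The technical sets were divided at 1.8% unmapped reads.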

Additional observations from a re-analysis of the deposited data

How the results depend on the processing

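Up to 22 alternatives were run per result, and a replicate block combined with the set term was added after the data were seen. Of 670 alternative values of the 30 member fold changes, 652 kept their side of the threshold, 13 lost a call, 5 gained one and 0 called values changed sign. E2F2 and E2F7 passed in melatonin against control under all 23 alternatives, with log2 fold changes of -0.99 to -0.86 and -0.73 to -0.52. The replicate numbers did not pair the libraries (correlations of deviations -0.13 to 0.10), and with the replicate block 5 members were called in both melatonin comparisons and 0 in siCLOCK against control. Of all 16441 genes tested, the block left 1875 lower and 1658 higher in melatonin against control. It left 1550 and 1162 in melatonin against siCLOCK, and 8 and 4 in siCLOCK against control. The replicate block with the set term left 2 members in melatonin against control, E2F2 and E2F7, and 218 genes lower and 63 higher of all tested. E2F1 at -0.25, E2F8 at -0.52 and RBL1 at -0.38 were not called there (edgeR adjusted p = 0.510, 0.255 and 0.337).

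Other counts moved by over 1.5 times. In siCLOCK against control, DESeq2 called 1 E2F target and 2 cyclin D pathway genes, as did leaving out the filter, and the set term called 2 cyclin D pathway genes. Leaving out a library gave 0 to 1 targets and 0 to 2 cyclin D pathway genes. With the set term, melatonin against control had 1 MuvB, 1 PRC1.6 and 2 cyclin D pathway calls, and melatonin against siCLOCK 1 PRC1.6 and 1 cyclin D pathway call. With only the 6 libraries compared, 6 PRC1.6 genes were called in melatonin against control. In that fit 2809 of all 16087 genes tested were lower and 2503 were higher. Leaving out a library gave 1 to 3 PRC1.6 calls in melatonin against siCLOCK. The activator minus repressor median was -0.20 and -0.45 on the strand-specific counts for melatonin against control, -0.24 and -0.47 on them for melatonin against siCLOCK, and -0.46 to -0.27 there with a library left out. The cause was not tested.

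Over all genes, the set term left 487 genes lower and 283 higher in melatonin against control, whereas 1987 and 1803 were called without it, and 633 and 328 in melatonin against siCLOCK, whereas 1655 and 1221 were called without it. In siCLOCK against control, 11 genes lower and 9 higher became 29 and 47 with DESeq2, 59 and 152 without the filter, 43 and 73 with the set term, and 1 and 1 without control replicate 1.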

Other observations

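E2F5 gave other values on the strand-specific counts that the tables also hold. The strand totals were nearly equal, so over the shared bases each of these counts can mix reads of E2F5 with reads of the opposite-strand genes, and neither is a cleaner value for E2F5. In melatonin against control its log2 fold change was 0.27 on one of these counts (edgeR adjusted p = 0.0156) and 0.11 on the other (edgeR adjusted p = 0.350), and it was 0.12 without strand. In melatonin against siCLOCK it passed with library totals alone, at 0.22 (edgeR adjusted p = 0.0413).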
